A study of Sus scrofa with 33 samples.

Results

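PTX3 (Entrez 100513178) encodes pentraxin 3, and on the Affymetrix Porcine Genome Array it is 1 of 6765 measured genes, represented by 2 of the 24123 probe sets. They were taken as the probe sets whose only gene symbol in the platform annotation is PTX3. The one with the higher mean over all arrays is called the main probe set and the other the second. PTX3 was singled out because its rise at 120 min of pulmonary banding was the largest of all those genes. Its values in that comparison and over the whole course are given as a description and were not tested. The RefSeq annotation of the pig assembly Sscrofa11.1 places PTX3 on chromosome 13 within the span of VEPH1, a gene with no probe set of its own among those with 1 symbol, and it does not say which strand the probes of either set read.

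Pentraxin 3 is a secreted, multimeric long pentraxin, a pattern recognition protein of innate immunity. In other mammals it is made at the site of inflammation by endothelial cells, macrophages, dendritic cells, fibroblasts and smooth muscle cells in response to interleukin-1, tumour necrosis factor and toll-like receptor ligands, whereas the short pentraxins C-reactive protein and serum amyloid P come mainly from the liver. It binds complement C1q and factor H, P-selectin, fibroblast growth factor 2 and the hyaluronan-linked protein TNFAIP6, and in humans its plasma level rises in acute myocardial injury.

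RNA of the right ventricular free wall was measured in 11 pigs (Sus scrofa; the labels give no strain, sex or age), with 3 biopsies and 1 array per biopsy, 33 arrays in all. Each pig gave a baseline biopsy and a biopsy at 120 min of banding, which narrows the pulmonary artery and was used to induce right ventricular failure. Pigs were then randomised. The shunt arm (6 pigs) had 60 min of banding with a modified Glenn shunt, which leads caval blood into the pulmonary artery past the right ventricle. The control arm (5 pigs) had 60 min of banding alone before the last biopsy. No pigs without banding are among these samples, so banding cannot be told apart from the effects of anaesthesia, surgery, repeated biopsy and time. The biopsies are bulk tissue, in which more PTX3-expressing cells and more PTX3 RNA per cell cannot be told apart.

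The values are log2 robust multi-array average (RMA) values as deposited, so 1 unit is a factor of 2, and levels of different probe sets are not set against each other. Across the arrays, medians lay between 6.10 and 6.17 and correlations between arrays between 0.955 and 0.995. The spiked-in controls separated 3 sets of arrays: 12 arrays from shunt pigs 1 to 4 (mean Dap 3.38, BioB 8.33), 6 from shunt pigs 5 and 6 (Dap 8.34, BioB 5.96) and 15 from the control pigs (Dap 7.59, BioB 9.35). No set holds both arms, so the arm and the array set cannot be told apart in any comparison between arms. The 3 prime minus 5 prime GAPDH difference, a sign of RNA degradation, averaged 0.79, 0.80 and 0.85 in shunt arrays at baseline, 120 min and last, against 0.76, 0.86 and 0.82 in control arrays.

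In the shunt arm, the main PTX3 probe set had a lowest, median and highest value of 5.70, 6.16 and 8.77 at baseline, 10.22, 11.32 and 12.04 at 120 min and 10.62, 12.06 and 12.80 at the last biopsy. In the control arm its values for pigs 1 to 5 were 5.18, 5.98, 4.38, 4.54 and 6.56 at baseline, 9.68, 10.04, 9.07, 9.31 and 8.66 at 120 min, and 9.74, 11.38, 7.72, 9.89 and 10.47 at the last biopsy. Every biopsy under banding lay above every baseline biopsy of its own arm, and the highest of all baseline values belonged to shunt pig 4.

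**Figure D1:**
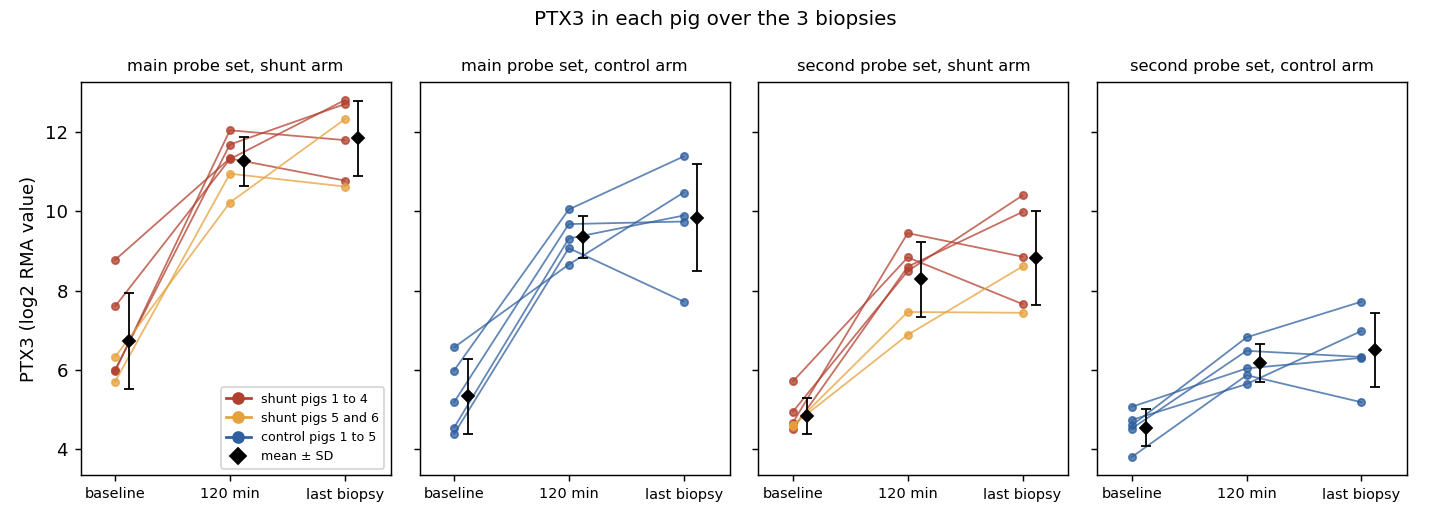
Log2 RMA value of PTX3 (vertical axis) at baseline, 120 min of banding and the last biopsy for each pig, in 4 panels for the main and second probe sets in the shunt and control arms, with 1 line per pig and diamonds with bars for the mean and SD of an arm. All lines rise to 120 min, and from there to the last biopsy 7 of the 11 pigs rise and 4 fall on the main probe set.

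Means of the main probe set were 6.73 ± 1.21, 11.25 ± 0.63 and 11.83 ± 0.95 in the shunt arm (SD, n = 6) at the 3 biopsies. They were 5.33 ± 0.93, 9.35 ± 0.54 and 9.84 ± 1.35 in the control arm (SD, n = 5). In ascending order the 6 means were control baseline, shunt baseline, control 120 min, control last, shunt 120 min and shunt last. Each group overlapped its neighbour in that order.

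The change from baseline to 120 min averaged 4.30 ± 0.33 (SE, 95% confidence interval 3.61 to 4.99), a 19.7-fold higher level at 120 min, and it was higher in 11 of 11 pigs. Shunt pigs 1 to 6 changed by 5.68, 3.71, 6.08, 2.56, 5.25 and 3.90, against 4.50, 4.06, 4.69, 4.77 and 2.09 for control pigs 1 to 5. The largest was 67.5-fold in shunt pig 3 and the smallest 4.26-fold in control pig 5. The 2 smallest, in shunt pig 4 and control pig 5, came in the pigs with the highest baseline of each arm, 8.77 and 6.56. Ranked among the 6765 genes of the same pig, the rise of PTX3 was between rank 1 and rank 11, with rank 1 in 5 of 11 pigs.

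Over all 23999 probe sets tested, the rises that passed Benjamini-Hochberg adjustment in limma at 120 min were 11.6% (2794) and the falls 17.4% (4170), with a median change of 0.01. Nothing is read from this about PTX3, which was chosen on that comparison. The next largest rises were HSPA6, an inducible heat shock protein (16.3-fold), ATF3, a stress-induced transcription factor (10.9-fold), and CCL2, a monocyte chemokine (10.6-fold). Over the whole course, PTX3 on its main probe set was the largest rise in each arm. It was 5.11 ± 0.45 in the shunt arm (SE, 34.5-fold), against 4.51 ± 0.50 in the control arm (SE, 22.8-fold). Next came HSPA6 at 26.6-fold in the shunt arm, and CCL2 at 9.01-fold in the control arm.

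The second probe set moved the same way by less. Its change at 120 min averaged 2.62 ± 0.27 (SE), a 6.14-fold higher level and rank 21 by size among the 23999 probe sets, and it too was higher in 11 of 11 pigs. Over the whole course it rose by 3.98 ± 0.37 in the shunt arm (SE, 15.8-fold, rank 4). In the control arm it rose by 1.96 ± 0.41 (SE, 3.88-fold, rank 35). Its values for shunt pigs had a lowest, median and highest of 4.51, 4.64 and 5.71 at baseline, 6.88, 8.55 and 9.45 at 120 min, and 7.44, 8.73 and 10.40 at the last biopsy. For control pigs 1 to 5 they were 4.52, 4.60, 3.80, 5.07 and 4.74 at baseline, 6.48, 6.82, 5.86, 6.04 and 5.64 at 120 min, and 6.32, 7.72, 5.18, 6.30 and 6.98 at the last biopsy.

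Across the 33 arrays the 2 probe sets correlated with r = 0.939 after each pig's mean was subtracted and with r = 0.733 in the residuals of the fit, as a description of arrays that share the same hybridisations. The change of the second averaged 0.609 of that of the main one. Baseline values of the second, 3.80 to 5.71, lay below every array median (6.10 to 6.17). What this low signal means for its changes was not tested. PTX3 also varied more than most features around the fit: the residual SD was 0.893 for the main and 0.732 for the second, against a median of 0.162 over all probe sets, and 99.9% and 99.7% of probe sets had a smaller one.

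The question of the last 60 min is whether PTX3 went on rising under banding, and whether the shunt changed that. The last biopsy is compared with the 120-min biopsy, whose arrays also entered the comparison that chose the gene, so these changes are not independent of the choice. Per pig, the last 60 min moved the main probe set by 1.02, 1.49, -0.25, -0.56, -0.32 and 2.10 for shunt pigs 1 to 6, against 0.06, 1.34, -1.35, 0.58 and 1.82 for control pigs 1 to 5. It was higher in 3 of 6 shunt pigs and in 4 of 5 control pigs, and both probe sets had the same sign in 10 of 11 pigs.

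The mean change in the last 60 min was 0.58 ± 0.45 in the shunt arm (SE, interval -0.36 to 1.51, limma adjusted p = 0.754, exact two-sided sign-flip permutation p = 0.281, where the smallest p that 6 pigs allow is 0.0312). In the control arm it was 0.49 ± 0.50 (SE, interval -0.53 to 1.51, limma adjusted p = 1.00, exact p = 0.375, where the smallest p that 5 pigs allow is 0.0625). Neither passed, and 0% of probe sets were called in either arm. At an unadjusted p under 0.05 there were 2146 probe sets in the shunt arm, against 737 in the control arm. The second probe set changed by 0.54 ± 0.37 in shunt pigs, against 0.33 ± 0.41 in control pigs, with limma adjusted p = 0.716 and 1.00. The difference between arms, shunt minus control, was 0.09 ± 0.67 (SE, interval -1.30 to 1.48, limma adjusted p = 1.00, exact permutation p = 0.892). The interval runs from 0.407-fold to 2.78-fold, so a difference of either sign within it is not excluded. Again 0% of probe sets were called, with 737 at an unadjusted p under 0.05.

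**Figure D2:**
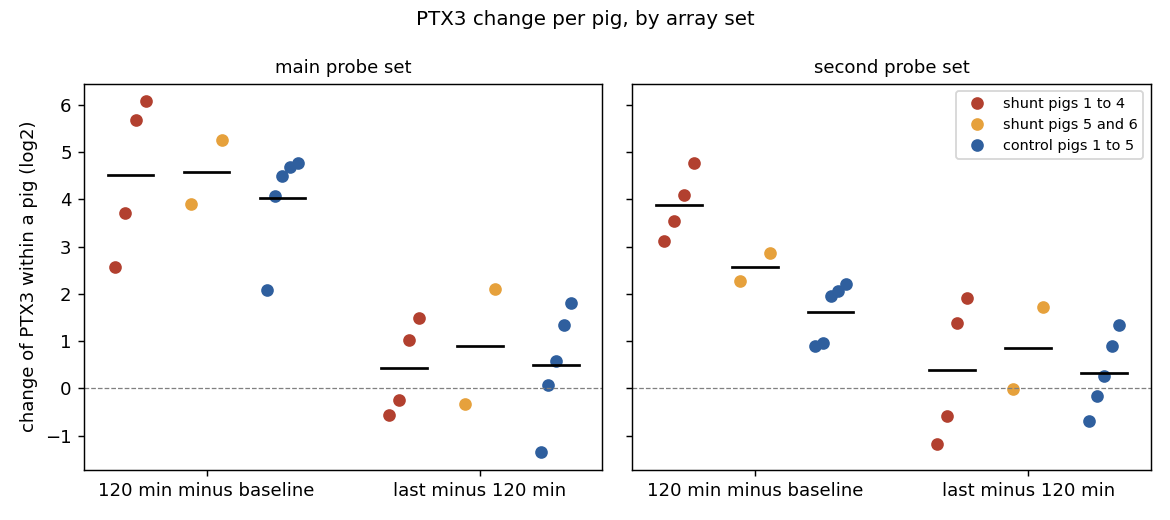
Log2 change of PTX3 within each pig, 120 min minus baseline and last minus 120 min, for the main (left) and second (right) probe set; each point is a pig, bars are means, and colours mark shunt pigs 1 to 4, shunt pigs 5 and 6 and control pigs 1 to 5. On the second probe set the shunt pigs lie at 2.28 or more and the control pigs at 2.22 or less for the change at 120 min.

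The arms had the same treatment up to 120 min. Shunt minus control, the change at 120 min differed by 0.51 ± 0.67 on the main probe set (SE, interval -0.88 to 1.89, limma adjusted p = 0.919, exact permutation p = 0.515). On the second it differed by 1.82 ± 0.55 (interval 0.68 to 2.96, limma adjusted p = 0.474 and unadjusted p = 0.00300, exact permutation p = 0.00433 against a smallest possible 0.00216). The shunt pigs changed by 3.45 ± 0.90 and the control pigs by 1.62 ± 0.63 (SD), and the arms did not overlap on the second probe set (2.28 to 4.78 in shunt pigs, against 0.90 to 2.22 in control pigs). By array set, the second probe set averaged 3.88 for shunt pigs 1 to 4, 2.57 for shunt pigs 5 and 6 and 1.62 for the control pigs. The main probe set averaged 4.51, 4.57 and 4.02 for the same sets. Of all probe sets 0% passed for this difference, with 1655 at an unadjusted p under 0.05.

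Over the whole course, the arms' difference was 0.60 ± 0.67 on the main probe set (SE, interval -0.79 to 1.98, limma adjusted p = 0.800, exact permutation p = 0.498) and 2.03 ± 0.55 on the second (interval 0.89 to 3.17, limma adjusted p = 0.153, exact permutation p = 0.0281). Neither passed in limma, where 0.00417% of probe sets (1) were called and 2922 had an unadjusted p under 0.05. At baseline, before any banding, the shunt arm was 1.40 ± 0.55 higher on the main probe set (SE, interval 0.21 to 2.58, limma unadjusted p = 0.0244, adjusted p = 0.347, exact permutation p = 0.0736) and 0.29 ± 0.24 higher on the second (adjusted p = 0.663). For the baseline comparison 0.0208% of probe sets (5) passed, and 2820 had an unadjusted p under 0.05.

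PTX3 stood higher in the shunt arm at 120 min, before any shunt had been placed. The arms' levels were compared at 120 min and at the last biopsy after the data had been seen. At 120 min the shunt pigs ranged between 10.22 and 12.04 and the control pigs between 8.66 and 10.04, with no overlap. The difference of 1.90 ± 0.30 (SE, interval 1.27 to 2.54, 3.74-fold) passed (limma adjusted p = 0.0281, exact permutation p = 0.00433), as did that of the second probe set, 2.12 ± 0.38 (limma adjusted p = 0.0447, exact permutation p = 0.00433). Of all probe sets 0.35% (84) passed, and 3903 of 23999 had an unadjusted p under 0.05. The mean of 6 neutrophil markers at 120 min was 4.92 to 6.04 in shunt pigs, against 4.49 to 4.90 in control pigs. That of 3 adipocyte markers did not overlap either, and was lower in shunt pigs (7.03 to 7.23, against 7.25 to 7.52). The means of the other marker lists overlapped between the arms. The part of any of these lists in the PTX3 difference was not tested. Without shunt pig 1, 3 or 4 or control pig 3 or 5, the limma adjusted p of the main probe set was 0.0618, 0.0586, 0.0635, 0.0863 and 0.0866, and with array quality weights 0.0976. At the last biopsy the difference was 1.99 ± 0.59 (limma adjusted p = 0.170, exact permutation p = 0.0173) and 2.32 ± 0.56 on the second (adjusted p = 0.140, exact p = 0.0130), with 0.0167% of probe sets (4) called. An unadjusted p under 0.05 was found there for 3817 probe sets.

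PTX3 belongs to the pentraxins, and of the 6 other family members listed 2 were measured at 120 min by a single-symbol probe set. CRP, the short pentraxin C-reactive protein, rose by 0.19 ± 0.06 (1.14-fold, limma adjusted p = 0.0259, higher in 9 of 11 pigs), and APCS, serum amyloid P, was 0.02 ± 0.06 (adjusted p = 0.863). The others were not measured by a single-symbol probe set. Over all biopsies the mean level of CRP and APCS lay between 3.74 and 4.17 in shunt pigs. In control pigs it lay between 3.68 and 4.06, and all these values were below every array median (6.10 to 6.17). What this low signal means for the change of CRP was not tested.

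The known inducers of PTX3 (interleukin-1, tumour necrosis factor and toll-like receptor ligands, their receptors and adaptors) were measured by 14 of 19 genes. At 120 min 9 rose, 0 fell and 5 did not pass, with a median change of 0.43. The mean change of the list was 0.65 ± 0.15 in shunt pigs, against 0.34 ± 0.08 in control pigs (SD). For that difference between arms 0 of the 14 passed in limma and 6 had an unadjusted p under 0.05, beside 0 and 1655 of all 23999 probe sets. Over all probe sets 11.6% rose and 17.4% fell at 120 min, with a median of 0.01, and the counts of every list that follows are to be read against these shares. The comparison is not a matched one: a listed gene was counted by its probe set with the highest mean, while the shares cover all 23999. Calls were more frequent among probe sets of higher mean: without the 30% of lowest mean 6415 were called, against 6964 of all. IL1R1, the interleukin-1 receptor, rose by 1.46 ± 0.19 (2.75-fold, limma adjusted p = 2.40e-06) on 1 of its 2 probe sets, while the other was 0.11 and did not pass. TNFRSF1A, the first tumour necrosis factor receptor, rose by 0.74 ± 0.07 (adjusted p = 4.56e-08), and the pattern receptors TLR4 and TLR2 rose by 0.73 and 0.89. Of the 5 probe sets of TLR4, 4 rose, and they ran from 0.08 to 0.73. Of the ligands, IL1B rose by 0.54 ± 0.15 (adjusted p = 0.00921), while TNF was 0.09 ± 0.07 (adjusted p = 0.336). IL1A was 0.11 ± 0.11 (adjusted p = 0.507), and IL10, also in the list, was 0.32 ± 0.14 (adjusted p = 0.0759). Apart from IL1B, the genes of the list that rose were receptors and adaptors.

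NF-kB, the transcription factor family that drives PTX3 in cell culture, was measured by 5 of 15 genes: 3 rose, 0 fell and 2 did not pass, median 0.23, against 11.6% of all probe sets rising. NFKBIB, an inhibitor of NF-kB, rose by 0.65 ± 0.10, TNIP1, which dampens the pathway, by 0.26, and IKBKG, the scaffold of the kinase, by 0.23, while the subunit NFKB1 was 0.15 ± 0.07 (limma adjusted p = 0.104). The inhibitor NFKBIA went the other way, -0.13 ± 0.13 (limma adjusted p = 0.472, lower in 8 of 11 pigs). NFKBIB and IKBKG each rose on 1 of 2 probe sets, and the others were 0.22 and 0.06. Of the AP-1 subunits and JNK kinases 8 of 12 were measured and 4 rose, with a median of 0.15. ATF3 rose by 3.45 ± 0.41, FOSL2 by 1.49 ± 0.16, FOS by 1.39 ± 0.43 (adjusted p = 0.0161) and FOSL1 by 0.16 ± 0.06 (adjusted p = 0.0442). The 3 probe sets of FOSL1 differed in size, 0.16 to 2.11, and all 3 rose.

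The lists drawn up around the known partners of the protein also hold related genes, and they moved little on the median. The complement partners were measured by 10 of 12 genes with a median change of 0.06, and the 1 of 10 that rose is near the 11.6% of all probe sets. It was FCN1, the monocyte ficolin (0.51 ± 0.19, limma adjusted p = 0.0497), and C1QA and C1R, components of the C1 complex, were 0.11 and 0.08 and did not pass. Hyaluronan matrix partners, 9 of 12 measured, had a median of 0.06 and 3 rises. TNFAIP6, whose product links hyaluronan to pentraxin 3, rose by 0.99 ± 0.22 (adjusted p = 0.00129). ITIH4 rose by 0.38 and ITIH3 by 0.25, both heavy chains of the inter-alpha-trypsin inhibitor family, and ITIH3 rose on 1 of its 3 probe sets. Of the growth factor, selectin and Fc receptor partners, 8 of 10 measured, 2 rose: SELP, the adhesion receptor P-selectin, 0.96 ± 0.21 (adjusted p = 0.00129), and FGFR1, 0.38. FGFR1 rose on 1 of 2 probe sets, the other being 0.21. FGF2, the growth factor that pentraxin 3 binds, was -0.14 ± 0.07 (adjusted p = 0.155), and its other probe set was 0.24 and did not pass. Of 9 of 16 other acute-phase proteins measured, 2 rose, HAMP, which encodes hepcidin (0.43), and ITIH4, and 1 fell, SAA2, a serum amyloid A (-0.22 ± 0.08, adjusted p = 0.0309), with a median of 0.09. The other probe set of SAA2 was 0.03 and did not pass. The calls of CRP, FCN1, FOSL1, SAA2 and ITIH3 were each lost in 7 to 12 of the alternatives tried. In the last 60 min of either arm, and in the difference between arms at 120 min and in the last 60 min, 0 of the 64 listed genes passed in limma. At an unadjusted p under 0.05 there were 6 for the last 60 min with the shunt, 2 for the last 60 min of the control arm, 11 for the difference at 120 min and 2 for that in the last 60 min. Over all 23999 probe sets the same counts were 2146, 737, 1655 and 737.

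**Figure D3:**
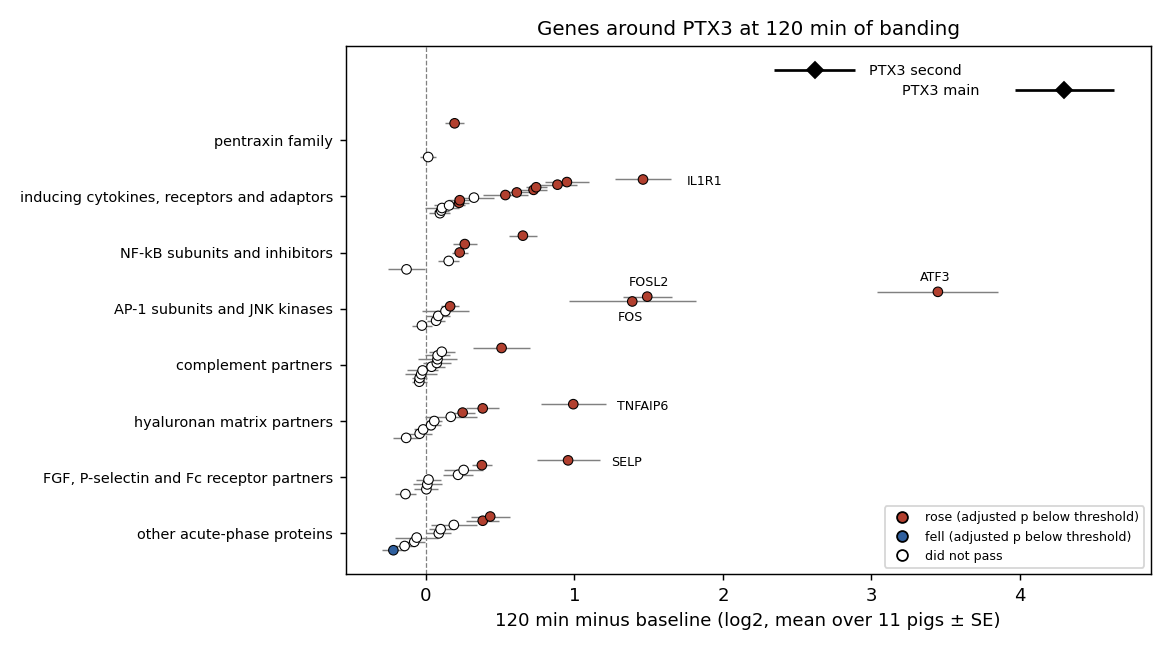
Log2 change at 120 min of banding minus baseline, mean over 11 pigs with SE, for the measured members of 8 gene lists (rows) and both PTX3 probe sets (diamonds at the top); filled red points rose, blue points fell and open points did not pass. IL1R1 (1.46) leads the inducing list and ATF3 (3.45) the AP-1 list, while most complement partners lie near 0.

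Markers of the cells that can make or carry PTX3 were counted in the same way, against the 11.6% of all probe sets that rose and the 17.4% that fell; counts this small are given as a description. Of 13 neutrophil markers 6 were measured and 2 rose at 120 min, S100A9 (1.38 ± 0.29, limma adjusted p = 0.000808) and LTF (0.49 ± 0.13). The mean level of the 6 in a pig ran from 4.42 to 4.96, 4.92 to 6.04 and 4.96 to 6.47 over the 3 biopsies in shunt pigs. It ran from 4.55 to 4.80, 4.49 to 4.90 and 4.89 to 5.19 in control pigs. Their mean change at 120 min was 0.74 ± 0.44 in shunt pigs (SD, higher in 6 of 6) against 0.06 ± 0.17 in control pigs (higher in 4 of 5). For the difference between arms in this change, 0 of these 6 markers passed in limma and 4 had an unadjusted p under 0.05. Of all 59 marker genes 0 passed and 9 had an unadjusted p under 0.05, beside 0 and 1655 of all 23999 probe sets.

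Of 10 macrophage and monocyte markers 8 were measured and 5 rose: the scavenger receptor CD163 (0.74 ± 0.10), FCN1 (0.51), TYROBP (0.42), MRC1 (0.27) and the lipopolysaccharide co-receptor CD14 (0.23, on 1 of 2 probe sets). The calls of FCN1 and CD14 were lost in 12 and 6 of 20 alternatives. Without control pig 2 or 3, shunt pig 4 or 6, or the pig block, 2 or 3 of them passed. Their list had a mean change of 0.44 ± 0.22 in shunt pigs, against 0.16 ± 0.25 in control pigs (SD). For that difference between arms, 0 of these 8 markers passed in limma and 2 had an unadjusted p under 0.05. Over the 3 biopsies their mean level ran from 6.73 to 6.83, 6.82 to 7.45 and 6.997 to 7.80 in shunt pigs. It ran from 6.56 to 7.002, 6.79 to 7.10 and 6.80 to 7.38 in control pigs. The dendritic cell markers (3 of 7 measured) included CD83, up by 1.30 ± 0.23 on 1 probe set and by 0.30 on its other, and CD83 is also found on other activated cells. RMA values have no zero, so no marker can be called absent, and the part of these cells in the PTX3 result was not tested.

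Among the resident cells, 9 of 10 endothelial markers were measured and CLDN5, a tight junction claudin, rose (0.89 ± 0.17) while the angiopoietin receptor TEK (-0.41 ± 0.08) and the cadherin CDH5 (-0.18 ± 0.06) fell. These counts, 1 up and 2 down of 9, are near the 11.6% and 17.4% of all probe sets. TEK fell on 1 of 3 probe sets, with the highest at 0.07, and CDH5 on 1 of 2, and the call of CDH5 was lost in 11 of 20 alternatives. The mean change of the 9 was -0.02 in shunt pigs, against 0.03 in control pigs. Of 8 smooth muscle and pericyte markers 5 were measured and 2 rose, the actin-binding CNN1 (1.14 ± 0.12) and TAGLN (0.61 ± 0.16). Of 8 fibroblast markers 6 were measured and COL3A1, a fibrillar collagen, rose (0.44 ± 0.11) while LUM, a matrix proteoglycan, fell (-0.31 ± 0.10), counts that are also near the shares of all probe sets. The call of LUM was lost in 3 of 20 alternatives. None of 9 measured ventricular cardiomyocyte markers, 3 erythrocyte markers or 2 mesothelial markers passed in limma. At an unadjusted p under 0.05 these were 0, 2 and 0, beside 9501 of all 23999 probe sets. The mean level of the 9 cardiomyocyte markers lay between 13.73 and 14.03 in shunt pigs and between 13.89 and 14.08 in control pigs over all biopsies. Of the other lists, 1 of 5 lymphocyte markers fell, CD8A (-0.50 ± 0.11), and of 3 adipocyte markers LEP rose (0.22 ± 0.07, on 1 of 2 probe sets) and FABP4 fell (-0.33 ± 0.11, lost in 8 of 20 alternatives).

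Genes whose pattern was most like that of PTX3 were found by Pearson's r with the main probe set over the 33 arrays, in 6764 other genes, as a description: the points share pigs and times, so r carries no p. With each pig's mean subtracted, the 10 highest were CCL2 (r = 0.971), MT-2B (0.962), IER3 (0.956), THBS1 (0.955), CEBPD (0.953), CYR61 (0.952), EIF4A1 (0.952), LOC100621607 (0.947), TNFAIP1 (0.945) and XIRP1 (0.942), and the median over all genes was -0.09. They hold a chemokine (CCL2), a metallothionein (MT-2B), an immediate-early gene (IER3), the matricellular proteins THBS1 and CYR61, a transcription factor (CEBPD), a translation factor (EIF4A1) and an actin-binding muscle protein (XIRP1). This measure is led by the rise at 120 min, in which each of the 10 was higher in 11 of 11 pigs.

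With the groups' own means removed as well, so that only each pig's departure from its group is left, the 5 highest were VCAM1 (0.787), CCL2 (0.786), ICAM1 (0.783), DPEP1 (0.764) and CEBPD (0.762), with a median of -0.09. VCAM1 and ICAM1 are endothelial adhesion molecules for leukocytes, and DPEP1 is a membrane dipeptidase whose r with the pig means alone subtracted was 0.251. Leaving out shunt pig 4 gave the lowest of these correlations for VCAM1 (0.676), ICAM1 (0.678), CCL2 (0.687) and CEBPD (0.622). In the last 60 min, MT-2B moved in the same direction as PTX3 in 11 of 11 pigs, ICAM1 and DPEP1 in 9, THBS1 and TNFAIP1 in 8, CCL2, IL6 and VCAM1 in 7, CEBPD and EIF4A1 in 6, and IER3, CYR61, LOC100621607 and XIRP1 in 5. All of these but IL6 were picked by likeness over the same arrays, so the counts are not independent of that choice. How many of all genes matched PTX3 in as many pigs was not counted, and nothing is read from these counts.

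**Figure D4:**
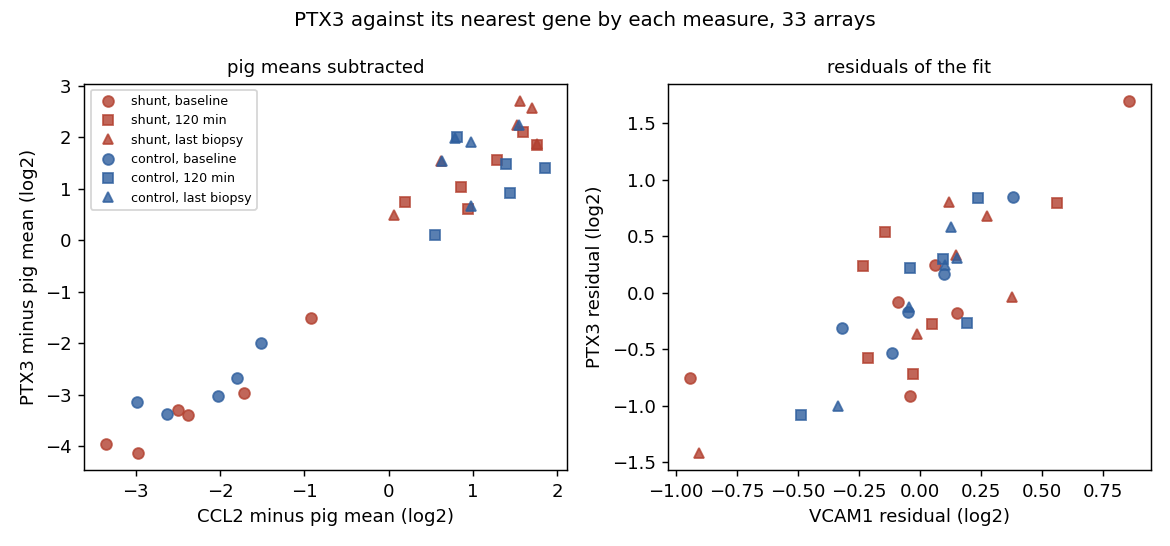
Left, PTX3 against CCL2 with each pig's mean subtracted (log2), and right, PTX3 residuals of the fit against VCAM1 residuals (log2), 33 arrays, with red for the shunt arm and blue for the control arm and circles, squares and triangles for baseline, 120 min and last. Baseline arrays sit apart at the lower left on the left, with r = 0.971; on the right r = 0.787, and the point farthest up and to the right is the baseline of shunt pig 4.

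CCL2, the gene closest to PTX3 by the first measure, rose by 3.40 ± 0.29 at 120 min (limma adjusted p = 1.37e-08). Its lowest, median and highest values in the shunt arm were 7.87, 8.65 and 11.04 at baseline, 12.13, 12.43 and 12.82 at 120 min and 11.18, 12.81 and 13.45 at the last biopsy. In the control arm they were 7.29, 8.34 and 8.80 at baseline, 10.25, 11.77 and 12.75 at 120 min and 10.42, 11.11 and 12.87 at the last biopsy. IL6, the cytokine interleukin-6, rose by 2.96 ± 0.43 at 120 min (7.79-fold, limma adjusted p = 1.29e-05). For the last 60 min IL6 changed by 0.40 ± 0.58 in shunt pigs, against -0.06 ± 0.64 in control pigs, and neither passed (adjusted p = 0.891 and 1.00).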

How the data were processed

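The authors deposited log2 values made with RMA (per the submitters' processing notes), which corrects background, quantile normalises and combines the probes of a set. Its version, and the arrays it was run on together, is not given in the sources used here. Values were used as deposited, without further scaling or filter. The table held 24123 probe sets, of which 124 were controls and 23999 were tested. Symbols came from the platform annotation, where 10069 probe sets had 1 symbol, and a gene was represented by the probe set with the highest mean (6765 genes). Changes were estimated with limma 3.58.1 in R 4.3.3 on all 33 arrays, pig as a fixed block, Benjamini-Hochberg over 23999 probe sets, threshold 0.05. The labels give the same pig at each biopsy; arrays of the same pig had a median r of 0.395 in deviations from group means, against -0.05 for different pigs, and 28 of 33 correlated best with another biopsy of that pig. Levels of the arms at one biopsy were compared on that biopsy's 11 arrays. Exact permutations (two-sided) flipped signs within an arm or permuted arm labels. PTX3, its partner lists, the markers and the naming rule (both probe sets, the 10 and 5 most similar genes, the 3 next largest rises, up to 4 genes of each list, all pentraxins, and IL1B, TNF and IL6) were chosen with earlier results of these data known. FGF2 and NFKBIA were named after their values were seen, as were the next genes of the whole course. Pigs are the replicates. Alternatives were other scalings, blocks, weights, filters, array sets and each pig left out.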

Additional observations from a re-analysis of the deposited data

Results flagged for a closer look

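Dixon's test for a value standing apart from its group was run on 24 groups of PTX3 values, and 2 were past the 95% critical value, where chance gives about 1 in 20. The change of the main probe set at 120 min in control pig 5, 2.09, lay below those of the other 4 control pigs (gap ratio 0.735). The baseline of the second probe set in shunt pig 4, 5.71, lay above those of the other 5 shunt pigs (gap ratio 0.634).

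On the second probe set, the change at 120 min was higher in the shunt arm than in the control arm by 1.82, and every shunt pig lay above every control pig. Its whole-course change was higher by 2.03. Both passed the exact permutation test (p = 0.00433 and 0.0281) and neither passed Benjamini-Hochberg adjustment over all probe sets in limma (0.474 and 0.153). On the main probe set these differences were 0.51 and 0.60, and the arm and the array set cannot be told apart.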

How the results depend on the processing

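The change of PTX3 at 120 min, 4.30, was between 4.12 and 4.52 with any 1 pig left out and 2.62 on the second probe set. The whole-course change was 4.79 to 5.73 in the shunt arm and 4.29 to 4.80 in the control arm with any 1 pig left out, and in the control arm 1.96 on the second probe set and 3.23 on the mean of both. With any 1 pig left out, the change in the last 60 min was 0.28 to 0.81 in the shunt arm and 0.16 to 0.95 in the control arm, its difference between arms -0.37 to 0.42, the difference between arms in the change at 120 min 0.02 to 0.90, that over the whole course 0.28 to 1.22, and that at baseline 0.99 to 1.71. Without shunt pigs 5 and 6 the arms' difference in the last 60 min was -0.0648. The difference in level at 120 min was 1.73 to 2.11 with any 1 pig left out (limma adjusted p 0.0124 to 0.0866) and 1.64 with array weights, where it did not pass; at the last biopsy it was 1.46 to 2.38 and passed in 0 of 19 alternatives. The cause of these shifts was not tested.

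Pig is a block because the same animal was sampled at each biopsy. With no replicate block the number of listed genes called at 120 min was 29, against 41 with it, and the number of probe sets 4865, against 6964. The block was not used for the arms' levels at one biopsy. The 84 probe sets called for the arms' level at 120 min became 9 with array weights, 492 without shunt pigs 5 and 6, and 7 to 165 with 1 pig left out. The 41 listed genes and markers called at 120 min were 29 to 45 over 20 alternatives. By list, the counts that moved by over 1.5 times were 2 to 5 for the macrophage markers (5), 2 to 4 for the neutrophil markers (2), 1 to 3 for the hyaluronan partners, the acute-phase proteins (3 each) and the fibroblast markers (2), 1 to 2 for the adipocyte (2) and dendritic cell markers (1), 0 to 2 for the erythrocyte markers (0), and 0 to 1 for the complement partners and the pentraxins (1 each). The call of CRP was lost in 8 of 19 alternatives, FCN1 and FOSL1 in 12 of 20, CDH5 in 11 of 20, SAA2 and FABP4 in 8 of 20, ITIH3 in 7 of 20, CD14 in 6 of 20 and LUM in 3 of 20. The change of APCS, which did not pass, was -0.0167 after quantile normalisation and -0.0337 with array weights, and -0.0185 to 0.0388 with any 1 pig left out. The number of pigs limits precision.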
